A study of Mus musculus with 62 samples.

Results

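The step between week 6 and week 4 was examined in the tibialis anterior (a muscle of the lower hind limb made up mostly of fast fibres) of mice carrying cachectic melanoma cells (CAC). Its members were the table columns titled CAC6wk and CAC4wk, 5 libraries of each week, 10 of the 62 in the series, and all genes entered. The female mice, aged 2 months, carried melanoma cells of a cachectic kind (CAC) or of a non-cachectic kind (NCAC) or had been mock injected (Con), and their muscles were collected at weeks 2, 4, 6 and 8. The groups used here were CAC at week 6, CAC at week 4, NCAC at week 6, NCAC at week 4, Con at week 6 and Con at week 4, with 5 libraries each. The strain is given in conflicting ways, as C57BL/6J on the samples and as nude (NCI Ath/nude) mice in the design text. The sources used here do not give the melanoma lines, the site and number of cells injected or the mice's weights. The protocols call the libraries biological replicates, and each is taken as 1 mouse.

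Cachexia is a wasting of muscle and adipose tissue seen in many patients with cancer. In wasting muscle, cytokines of the IL-6 family act through the gp130 receptor, JAK kinases and STAT3, while glucocorticoids and falling insulin signals release FOXO transcription factors from inhibition by AKT. Both routes feed the ubiquitin-proteasome and autophagy-lysosome systems that break down the contractile proteins, and in mice the muscle ligases Trim63 (MuRF1) and Fbxo32 (atrogin-1) are their best known markers. The question here is which of these genes differed between the 2 weeks in CAC muscle, with the same weeks of Con muscle as the reference for time alone.

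Values are TPM, in which the authors give each gene's share of the transcripts in a library, so they keep no read depth and depth is unknown. Changes are differences of mean log2(TPM + 1), week 6 minus week 4, for the 11107 genes that averaged 1 TPM or more across the 62 libraries, and that scale understates the change of weak genes. Calls required an adjusted p (Benjamini-Hochberg) below 0.05 in limma fitted to the 10 libraries. "Rose" and "fell" are kept for called genes. For 2 other readings, the same contrast was taken from a fit of all 62 libraries, and a gene was said not to overlap where all 5 week-6 values lay on one side of all 5 week-4 values. The p-values measure the spread between these mice.

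The tissue label fitted its markers, since all 8 markers of skeletal muscle fibres were tested and together made up 78137 to 103927 TPM in CAC libraries at week 6 and 82028 to 95779 TPM at week 4. On the first principal component over all libraries, which held 49.7% of the variance, the CAC libraries lay at 75.98, 40.3, 38.04, 39.9 and 32.2 at week 6, replicates 1 to 5 in turn, and at -13.7, 33.5, -1.89, 22.4 and 2.199 at week 4. The Con libraries of both weeks lay between -22.9 and -4.24. At week 4, replicates 2 and 4 stood nearest to the week-6 libraries, with replicate 2 inside their range. At week 6, replicate 1 stood farthest out.

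Rasd2 and Plvap rose between the 2 weeks, and no other gene was called. These 2 were 0.0180% of the 11107 genes tested, and 0 were called lower. At an unadjusted p under 0.05, 4566 genes were higher (41.1%) and 169 lower (1.52%), and the smallest adjusted p-values crowded just above the threshold, with 3856 genes higher and 128 lower at an adjusted p under 0.1, a count chosen after seeing the data. In the fit of all 62 libraries, which takes the spread as equal in all groups, 3662 genes were called higher (33.0%) and 100 lower (0.900%). The CAC groups varied more than most, with a median SD over genes (log2) of 0.216 at week 6 and 0.197 at week 4. Con muscle had 0.151 and 0.169 at weeks 6 and 4, and NCAC muscle 0.277 and 0.132. The median SE of the CAC step was nearly the same in both fits, 0.136 on the 10 libraries and 0.137 on all 62. The fit of all 62 had 50 residual degrees of freedom, against 8. For genes that varied more in CAC muscle than elsewhere, errors from that fit may still be too small. Groups did not overlap in 1300 genes that were higher at week 6 (11.7%) and in 20 that were lower (0.180%).

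The count of calls turned on single libraries. It was 2066 without week-4 replicate 2, 8 without week-4 replicate 4, 3279 without both, and 0 without week-6 replicate 1, 2 or 4 or week-4 replicate 3. The genes without overlap numbered 3010 when week-4 replicate 2 was left out and 5081 when replicates 2 and 4 were.

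The shift depended on how the libraries were scaled. The median gene was 0.25 higher (log2) at week 6. Mitochondrially encoded transcripts made up 38.6 ± 3.39% of all TPM at week 6 and 44.7 ± 3.29% at week 4 (SD, n = 5 each; difference -6.12 percentage points, two-sided exact permutation p = 0.0159, adjusted over 3 shares 0.0238). TPM add up to the same total in every library, so the other genes of the week-6 libraries shared a larger remainder. With the mitochondrially encoded genes left out and the rest brought to the same total, limma on the 10 libraries still called 2 genes. At an unadjusted p under 0.05 there were then 2562 genes, against 4735 with them. The mitochondrial share was 33.5, 36.8, 40.7, 41.3 and 40.7% in the week-6 libraries and 49.6, 42.8, 44.95, 40.9 and 45.5% in the week-4 libraries, so only replicate 4 of week 4 lay within the week-6 range. Without week-4 replicate 1, 3 or 5 the adjusted exact permutation p was 0.0595. In Con muscle the share was 47.9 ± 2.74% at week 6 and 48.1 ± 4.52% at week 4 (exact permutation p = 0.929). After each library was divided by a median-of-ratios size factor (1.16 to 1.47 at week 6, 0.909 to 1.10 at week 4), the median change was 0.01. No gene was then called by limma on the 10 libraries (1924 at an unadjusted p under 0.05), while the fit of all 62 libraries called 289 higher (2.60%) and 399 lower (3.59%). Groups did not overlap after rescaling in 154 higher (1.39%) and 207 lower genes (1.86%), and all 154 and 20 of the lower ones also did not overlap as deposited. "Rescaled" below means this scaling, and a gene's change is best read against the median of 0.25 as deposited or 0.01 rescaled.

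**Figure D1:**
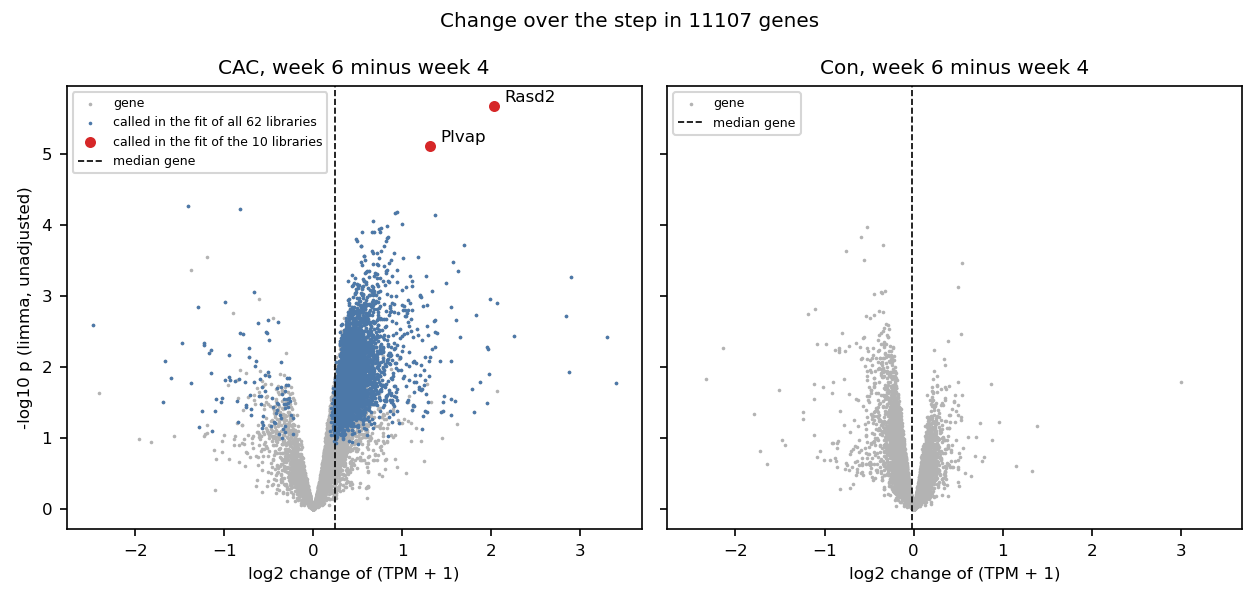
Log2 change of TPM + 1 between week 6 and week 4 (horizontal) against the unadjusted limma p on a -log10 scale (vertical) for 11107 genes in CAC muscle (left) and Con muscle (right). In CAC muscle the cloud sat to the right of 0, with its median at 0.25, and Rasd2 and Plvap were the 2 genes called from the 10 libraries (red), while blue points were called in the fit of all 62 libraries. In Con muscle the median was -0.02 and no gene was called.

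Rasd2 encodes a small GTPase of the dexamethasone-induced Ras family, best known from the striatum, where it is called Rhes and binds mTOR. It lies at chr8:75213944-75224113 on the plus strand (GRCm38, the assembly of mm10, GENCODE M21 annotation). CAC libraries held 29.1, 21.3, 15.2, 23.9 and 15.1 TPM at week 6, against 5.78, 5.13, 2.49, 2.98 and 5.56 TPM at week 4. The lowest week-6 value was more than 2 times the highest week-4 value, and no week-4 library stood apart from the others. The fold, a ratio of mean TPM, was 4.77 and the log2 change 2.03 (SE 0.23, limma adjusted p = 0.0232), or 1.76 rescaled. Con libraries held 13.1, 4.32, 2.82, 2.89 and 3.12 TPM at week 6 and 5.57, 3.79, 2.52, 1.56 and 1.65 TPM at week 4, with replicate 1 the highest in each. Leaving out 1 of the 10 libraries at a time kept the log2 change between 1.89 and 2.13 but the call in only 6 of 10 cases (adjusted p 0.0149 to 0.108). The promoter is printed below because Rasd2 was the gene with the largest called change.

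Plvap encodes the protein of the diaphragms that span endothelial caveolae and fenestrae, and it marks permeable vessels. It lies at chr8:71497765-71511752 on the minus strand. Its values were 60.5, 60.9, 69.5, 63.3 and 57.1 TPM at week 6, against 16.4, 33.7, 20.4, 29.96 and 25.6 TPM at week 4 in CAC muscle. All week-6 values lay within a narrow band above the week-4 values, among which replicates 2 and 4 were the highest. The fold was 2.47 (log2 change 1.31, SE 0.17, limma adjusted p = 0.0423; 1.03 rescaled), and the call held in 3 of the 10 fits without 1 library (adjusted p 0.0116 to 0.169). Con muscle had 18.8, 14.2, 14.8, 14.7 and 16.2 TPM at week 6 and 17.1, 17.8, 15.6, 8.44 and 8.52 TPM at week 4. The 9 general endothelial markers had a median log2 change of 0.31, or 0.04 rescaled, 4 were called higher in the fit of all 62 libraries and 0 had groups without overlap. The summed level of these markers was 226 to 304 TPM at week 6 and 188 to 252.1 TPM at week 4 in CAC muscle. As in all results from whole muscle below, more cells of a type and more RNA per cell cannot be told apart.

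Promoter sequences are shown for Rasd2 and for 2 genes of known regulation that head the cytokine and metallothionein groups below. Each is the 250 bases before the gene's start in RefSeq on GRCm38.p6, 5′ to 3′ on the gene's strand. Of 5 genes looked up (Rasd2, Plvap, Socs3, Mt2 and Fabp3), 4 were in the table. Capitals in Socs3 mark matches to the STAT motif TTCNNNGAA on either strand, and capitals in Mt2 mark matches to TGCNCNC, a loose form of the metal response element. Both motifs, the glucocorticoid receptor motif ACANNNTGT and the C/EBP motif TTGCNNAA were searched in Rasd2, and its capitals mark every match to any of them.
Rasd2, chr8:75213694-75213943 (+): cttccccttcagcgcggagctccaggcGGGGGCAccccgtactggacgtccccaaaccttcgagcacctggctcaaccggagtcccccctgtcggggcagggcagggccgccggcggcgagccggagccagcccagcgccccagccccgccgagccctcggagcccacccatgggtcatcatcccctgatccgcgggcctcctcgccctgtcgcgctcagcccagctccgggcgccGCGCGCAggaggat
Socs3, chr11:117969367-117969616 (-): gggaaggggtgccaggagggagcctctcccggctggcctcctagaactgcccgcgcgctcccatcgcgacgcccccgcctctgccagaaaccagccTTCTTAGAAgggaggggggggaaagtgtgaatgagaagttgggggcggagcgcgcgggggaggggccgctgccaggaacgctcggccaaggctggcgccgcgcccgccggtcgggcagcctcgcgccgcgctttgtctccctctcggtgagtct
Mt2, chr8:94172368-94172617 (+): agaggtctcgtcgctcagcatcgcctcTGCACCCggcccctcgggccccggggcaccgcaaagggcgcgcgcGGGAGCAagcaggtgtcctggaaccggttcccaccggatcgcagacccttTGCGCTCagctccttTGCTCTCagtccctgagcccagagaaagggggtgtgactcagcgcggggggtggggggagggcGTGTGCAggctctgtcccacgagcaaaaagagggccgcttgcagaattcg
The Socs3 window held 1 STAT match, which 7.02% of the 32851 promoter windows of the same length held. This window lies before the RefSeq start but inside the gene in GENCODE M21, where Socs3 spans chr11:117966079-117970047 on the minus strand. In the Mt2 window there were 5 matches to TGCNCNC, a short motif found at least once in 44.4% of windows. The search was loose, so not every match need be a metal response element. The Mt2 window also held 1 C/EBP match, not in capitals, and the Socs3 window 1 match to TGCNCNC, not in capitals. Rasd2 held 2 matches to TGCNCNC and 0 to the STAT, glucocorticoid receptor (5.84% of windows) and C/EBP (9.56%) motifs. The matches describe letters and not binding.

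**Figure D2:**
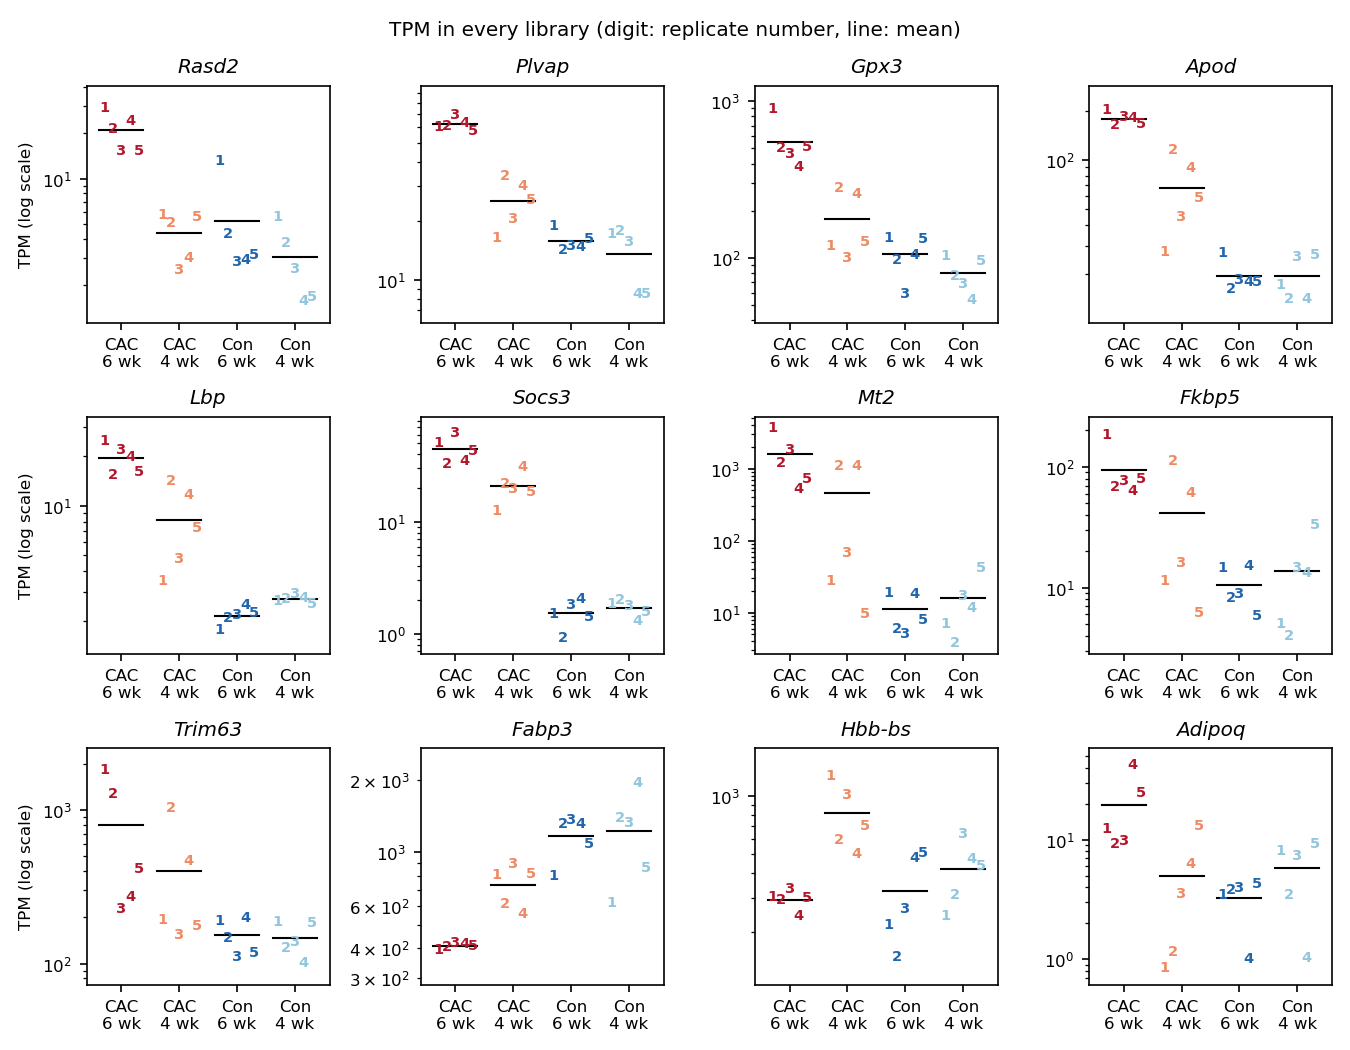
TPM of 12 genes on a log axis in every library of CAC at week 6, CAC at week 4, Con at week 6 and Con at week 4. Digits are replicate numbers and lines are means. Rasd2, Plvap, Gpx3, Apod and Lbp showed no overlap between CAC weeks, whereas for Mt2, Fkbp5 and Trim63 week-4 replicate 2 lay within the week-6 range.

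Apart from Rasd2, Plvap and a fixed panel of 12 genes, the genes named below were chosen after their values were seen, as members of a list or for groups without overlap. No list member was called in the fit of the 10 libraries. List counts are therefore from the fit of all 62 libraries, whose shares over all genes were 33.0% higher and 0.900% lower (2.60% and 3.59% rescaled), and from overlap, with 11.7% and 0.180% over all genes (1.39% and 1.86% rescaled).

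Genes of cytokine signalling were among the groups with the highest medians. Of 18 tested genes of IL-6 family signalling, 9 were called higher and 0 lower (5 and 0 rescaled), with a median log2 change of 0.55 (0.29 rescaled), and 2 had groups without overlap (0 rescaled). Socs3, the feedback inhibitor of gp130 and JAK signalling, had 50.8, 32.6, 61.4, 34.8 and 42.9 TPM at week 6, against 12.4, 21.6, 19.7, 31.1 and 18.4 TPM at week 4. The weeks did not overlap as deposited, although week-4 replicate 4 came within 2 TPM of the lowest week-6 library. On the rescaled values they overlapped. Its log2 change was 1.09 (SE 0.23, limma adjusted p = 0.0777), and both weeks were far above Con muscle, which held 1.51, 0.923, 1.81, 2.03 and 1.42 TPM at week 6 and 1.84, 1.98, 1.77, 1.29 and 1.55 TPM at week 4. Il6st, which encodes the shared receptor gp130, had 77.5, 61.8, 60.1, 50.9 and 50.6 TPM at week 6 and 32.8, 45.3, 31.4, 47.3 and 39.1 TPM at week 4, without overlap as deposited but with overlap rescaled. Osmr, the oncostatin M receptor, averaged 8.41 ± 1.86 TPM at week 6 and 4.298 ± 2.04 TPM at week 4 (SD, n = 5 each), with week-4 replicate 2 inside the week-6 range. Stat3 itself averaged 46.97 ± 17.3 TPM at week 6 and 30.1 ± 3.84 TPM at week 4, and its weeks overlapped, with week-6 replicate 1 the highest.

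The list of acute phase and C/EBP genes had a median log2 change of 0.83 (0.62 rescaled). Of its 17 tested genes, 10 were called higher and 0 lower (5 and 0 rescaled), and 5 lacked overlap (3 rescaled). Hepatocytes secrete acute phase proteins in inflammation, and muscle can also make them. The list held C/EBP transcription factors and the receptor Il1r1 as well. Il1r1 lacked overlap on either scale and is counted again among the inflammatory receptors below. Lbp, which hands bacterial lipopolysaccharide to its receptor, had 24.8, 15.4, 21.8, 19.8 and 16.1 TPM at week 6, against 3.48, 14.1, 4.74, 11.7 and 7.33 TPM at week 4. Every week-6 library lay above every week-4 library, and week-4 replicate 2 came closest. The log2 change was 1.28 (SE 0.30, limma adjusted p = 0.0777). Hp, encoding the haemoglobin scavenger haptoglobin, had 69.6, 28.4, 64.9, 261 and 85.3 TPM at week 6, against 1.66, 10.2, 12.9, 20.003 and 14.8 TPM at week 4, and week-6 replicate 4 was more than 3 times as high as any other CAC library of these weeks. Serpina3n, a protease inhibitor with near-identical neighbours among which reads may be divided, had 377, 55.6, 69.98, 93.8 and 66.3 TPM at week 6, against 4.02, 55.5, 6.86, 31.6 and 6.02 TPM at week 4, with week-4 replicate 2 just under the lowest week-6 value. Its weeks overlapped on the rescaled values, and its fold was 6.37, or 3.44 without week-6 replicate 1. Lcn2, a carrier of bacterial iron chelators, had 188, 35.4, 23.6, 28.7 and 12.4 TPM at week 6 and 0.895, 38.2, 0.995, 2.85 and 0.294 TPM at week 4, so week-4 replicate 2 was above 4 of the 5 week-6 libraries while the other 4 lay below all of them. Cebpd, a transcription factor of the acute phase, likewise overlapped widely, at 122, 87.7, 34.3, 58.1 and 76.99 TPM at week 6 and 6.33, 107, 21.04, 58.5 and 7.15 TPM at week 4. Hepatocyte markers had a median log2 change of -1.22 in CAC and -1.05 in Con muscle, with 0 of 6 called. Con week-4 replicate 3 had the highest hepatocyte median against Con week 4, 3.62 (log2). It also had the highest acute phase and C/EBP median of the Con libraries, 0.49. CAC week-4 replicate 5 had 2.56 and 0.70 for these 2 lists. What liver transcripts added to the acute phase values was not tested. Alb, the defining hepatocyte transcript, was listed at 0 in week-6 replicates 1 to 4 and at 1.16 TPM in replicate 5, while week-4 replicates 3 and 5 held 33.1 and 49.3 TPM and Con week-4 replicate 3 held 142 TPM. The summed hepatocyte list was 0.219 to 3.32 TPM at week 6 and 0.417 to 115 TPM at week 4.

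Complement genes gave a median log2 change of 0.84 (0.58 rescaled), with 10 of 15 called higher and 0 lower (4 and 0 rescaled) and 3 without overlap (2 rescaled). C4b, a component of the classical pathway, had 19.8, 15.3, 22.01, 27.5 and 26.1 TPM at week 6, against 2.03, 9.12, 4.74, 10.9 and 9.14 TPM at week 4, with no overlap, a log2 change of 1.63 (SE 0.34) and a limma adjusted p of 0.0777. The inhibitor of C1 esterase, Serping1, averaged 109 ± 14.99 TPM at week 6 and 60.6 ± 18.2 TPM at week 4 (SD, n = 5 each). C3, on which all complement pathways meet, averaged 62.4 ± 10.8 TPM at week 6 and 26.4 ± 13.02 TPM at week 4, with a single overlapping library, replicate 4, at week 4. Clu, which encodes the complement and chaperone protein clusterin, had 27.3, 17.4, 21.04, 25.9 and 20.9 TPM at week 6, against 10.3, 9.26, 13.2, 14.3 and 13.6 TPM at week 4. The weeks of Clu and C4b did not overlap as deposited or rescaled. Macrophage markers, which include complement C1q genes, had a median log2 change of 0.58 (0.34 rescaled), and their part in this group was not tested. Of the 8 of 10 macrophage markers tested, 3 were called higher and 0 lower in the fit of all 62 libraries (0 and 0 rescaled), and 0 lacked overlap. The share called higher was close to the 33.0% over all genes. The list's median level against Con week 4 was 0.95 to 1.29 (log2) at week 6 and 1.49 in week-4 replicate 4. Its summed level was 107 to 153 TPM at week 6 and 32.5 to 146 TPM at week 4.

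Receptors of inflammatory signals were higher at week 6 in most cases. Of 20 tested genes of NF-kB signalling and inflammatory receptors, 14 were called higher and 0 lower (6 and 0 rescaled), with a median log2 change of 0.55 (0.34 rescaled), and 6 had groups without overlap (3 rescaled). Tnfrsf1a, the main receptor of TNF, had 57.01, 40.9, 41.3, 51.2 and 36.7 TPM at week 6, against 19.9, 30.6, 21.7, 26.6 and 27.3 TPM at week 4. Il1r1, the signalling receptor of interleukin 1, had 6.51, 5.25, 6.84, 7.05 and 5.81 TPM at week 6, against 2.39, 4.102, 2.61, 4.53 and 3.65 TPM at week 4. Il13ra1, a receptor chain shared by interleukins 4 and 13, had 6.47, 5.001, 5.43, 6.26 and 5.14 TPM at week 6, against 1.82, 4.08, 1.79, 3.51 and 2.53 TPM at week 4. In each of these 3 genes the weeks did not overlap on either scale, week-4 replicate 2 or 4 was the highest of its week, and Con libraries of both weeks lay below the CAC week-4 mean. Their log2 changes were 0.82, 0.73 and 0.87 in the order named, each with a limma adjusted p of 0.0777. Interferon-stimulated and antigen presentation genes had a median of 0.24 (0.05 rescaled), close to that of all genes, with 3 of 25 called higher and 0 lower.

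Metallothioneins and glucocorticoid-responsive genes were higher at week 6 on average but differed widely among the week-4 mice. Mt2, a zinc-binding protein induced by metals and glucocorticoids, had 3710.2, 1190.4, 1826, 528 and 724 TPM at week 6, against 27.5, 1072, 67.4, 1087 and 9.63 TPM at week 4. Week-4 replicates 2 and 4 were already inside the week-6 range, while replicates 1, 3 and 5 were nearer the Con libraries, which held 18.5, 6.02, 5.13, 18.2 and 7.95 TPM at week 6 and 6.89, 3.75, 17.01, 11.6 and 41.7 TPM at week 4. Its fold was 3.52 (log2 change 3.39, SE 1.21, limma adjusted p = 0.0814), and 5.36 without week-4 replicate 2. Mt1 was likewise high in week-4 replicates 2 and 4, with 4266, 1125, 1746, 669.9 and 716 TPM at week 6 and 58.6, 1099.7, 92.5, 904 and 33.7 TPM at week 4. The list of metallothioneins and zinc transporters had 6 of 10 genes called higher and 0 lower (2 and 0 rescaled), a median log2 change of 0.43 (0.19 rescaled) and 0 genes without overlap. Slc39a14, a zinc and iron importer, reached 65.1 TPM in week-6 replicate 1 and 5.19 to 8.36 TPM in the other 4, against 2.23 to 13.3 TPM at week 4.

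Fkbp5, a co-chaperone induced by the glucocorticoid receptor, had 185, 68.7, 77.1, 62.8 and 78.9 TPM at week 6, against 11.3, 112, 15.9, 61.3 and 6.18 TPM at week 4. Week-4 replicate 2 was higher than 4 of the 5 week-6 libraries, and the log2 change was 1.79 (SE 0.67, limma adjusted p = 0.0852). Cdkn1a, the cell cycle inhibitor p21, had 145, 54.8, 51.02, 29.9 and 32.6 TPM at week 6, against 8.999, 80.9, 9.39, 26.2 and 11.3 TPM at week 4, again with week-4 replicate 2 above 4 week-6 libraries (log2 change 1.46, SE 0.59, limma adjusted p = 0.0941). Ddit4, an inhibitor of mTORC1 also known as REDD1, had 269, 231, 47.9, 119.8 and 118 TPM at week 6 and 11.5, 233, 24.7, 91.7 and 10.8 TPM at week 4. Glul, the glutamine synthetase of muscle, had 408, 375, 264, 244 and 501 TPM at week 6 and 75.7, 361, 188, 226 and 75.4 TPM at week 4. In all 4 genes the order of the week-4 libraries put replicate 2 first and replicate 4 next. Of 23 glucocorticoid-responsive genes, 9 were called higher and 0 lower (3 and 0 rescaled), with a median log2 change of 0.65 (0.37 rescaled), and 0 had groups without overlap. The list's median level against Con week 4 was 1.73, 1.67, 0.77, 1.19 and 1.15 (log2) in the week-6 libraries, replicates 1 to 5, and 0.00105, 1.88, 0.35, 1.02 and -0.28 in the week-4 libraries. The 15 tested genes of p53 and growth arrest, which include Cdkn1a, had a median of 0.39 (0.12 rescaled) with 2 called higher and 0 lower.

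**Figure D3:**
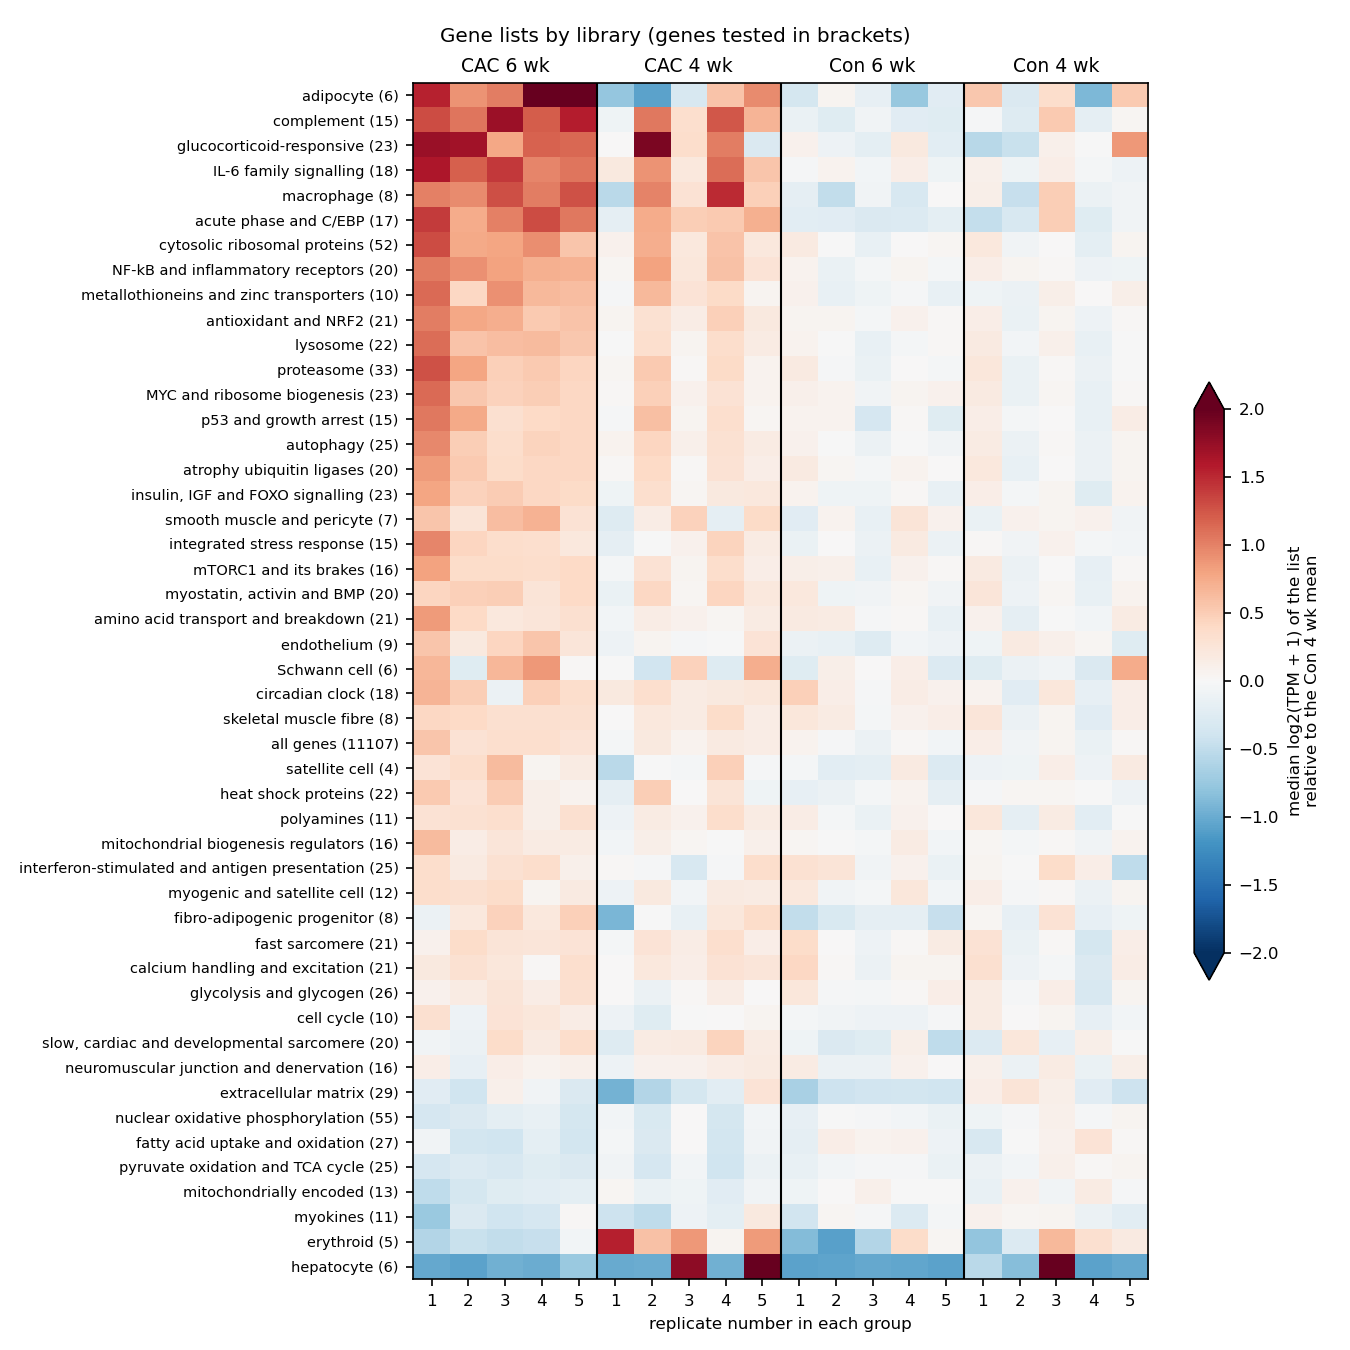
Median log2(TPM + 1) of each gene list relative to the mean of Con at week 4 (colour, clipped at -2 and 2) in the 20 libraries of CAC at week 6, CAC at week 4, Con at week 6 and Con at week 4, with the genes tested per list in brackets. Week-4 replicates 2 and 4 carried several raised lists at levels near those of week 6, for instance 1.88 and 1.02 for glucocorticoid-responsive genes, and week-6 replicate 1 was the most deeply coloured library in many rows.

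The muscle ubiquitin ligases varied between mice of the same week. Trim63 had 1820.4, 1285, 225, 272 and 411 TPM at week 6, against 192, 1029, 153, 464 and 174 TPM at week 4. Week-6 replicates 1 and 2 and week-4 replicate 2 were the highest, and the other 7 libraries lay between 153 and 464 TPM. The log2 change was 0.91 (SE 0.67, limma adjusted p = 0.291). Fbxo32 had 745, 470.0, 83.4, 208 and 162 TPM at week 6, against 102, 405, 77.1, 209 and 84.6 TPM at week 4, with the same 3 libraries highest and a log2 change of 0.82 (SE 0.60, limma adjusted p = 0.292). The weeks overlapped in both genes, and in neither did the fit of all 62 libraries call a change. Fbxo31, another F-box subunit of a ubiquitin ligase, had 382, 147, 94.3, 101 and 90.9 TPM at week 6, against 55.5, 86.4, 54.3, 73.9 and 47.9 TPM at week 4, without overlap as deposited. Among 20 atrophy ligases, 5 were called higher and 0 lower (1 and 1 rescaled), 2 had groups without overlap (0 higher and 1 lower rescaled), and the median log2 change of 0.30 (0.03 rescaled) was close to that of all genes.

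Proteasome subunits were more even. All 33 had a positive change, 27 were called higher and 0 lower (2 and 0 rescaled), and 2 had groups without overlap (0 rescaled), with a median log2 change of 0.48 (0.20 rescaled). Psmd2, a scaffold of the regulatory particle, had 373, 225, 167, 185 and 172 TPM at week 6, against 123, 166, 105, 159 and 112 TPM at week 4, and week-4 replicate 2 was within 2 TPM of the lowest week-6 library. Lysosomal genes were the group with the largest share of genes without overlap as deposited among the proteolytic lists, 11 of 22, but only 1 rescaled. Of them 19 were called higher and 0 lower (4 and 0 rescaled), with a median of 0.49 (0.22 rescaled). Lamp1, the main membrane glycoprotein of lysosomes, had 761, 496, 508, 528 and 493 TPM at week 6, against 359, 419, 372, 419.6 and 373 TPM at week 4. Ctsd, the aspartic protease cathepsin D, had 1392, 813, 669.9, 692 and 555 TPM at week 6, against 476, 501, 384, 489 and 379 TPM at week 4. Neither gene had overlapping weeks, and Lamp1 kept this on the rescaled values. Ctsl, a cathepsin that responds to glucocorticoids and starvation in rodent muscle, ranged more widely, with 887, 376, 139, 206 and 165 TPM at week 6 and 101, 253, 82.6, 143 and 102 TPM at week 4. Autophagy genes had a median of 0.32 (0.07 rescaled), with 11 of 25 called higher and 0 lower (0 and 0 rescaled) and 3 without overlap (0 rescaled).

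Among genes of insulin, IGF and FOXO signalling, 3 of 23 had groups without overlap (2 rescaled), a share close to the 11.7% over all genes as deposited, and in the list of myostatin, activin and BMP genes 1 of 20 had (1 rescaled). Akt1, the kinase that holds FOXO factors inactive and activates mTORC1, had 145, 46.7, 51.01, 58.9 and 42.6 TPM at week 6, against 28.4, 34.7, 27.9, 27.96 and 30.8 TPM at week 4. Week-4 replicate 2 was the highest of its week but still close to the Con libraries, which held 27.8, 29.2, 23.7, 25.4 and 24.5 TPM at week 6 and 25.9, 25.7, 28.4, 24.3 and 21.6 TPM at week 4. The log2 change was 1.02 (SE 0.28, limma adjusted p = 0.0777). Igfbp4, a binding protein that withholds insulin-like growth factors from their receptor, had 43.8, 29.1, 40.00, 44.1 and 32.8 TPM at week 6, against 8.76, 23.6, 15.1, 22.9 and 18.8 TPM at week 4, also without overlap. Of 23 genes of insulin, IGF and FOXO signalling, 9 were called higher and 2 lower (2 and 2 rescaled), and the median was 0.33 (0.08 rescaled). Nog, which encodes noggin, a secreted antagonist of bone morphogenetic proteins, whose signals preserve muscle mass in mice, lies at chr11:89300638-89302332 on the minus strand and had 25.1, 16.4, 21.5, 12.2 and 15.99 TPM at week 6, against 5.79, 4.67, 4.65, 10.7 and 6.77 TPM at week 4. The lowest week-6 library was above the highest at week 4, replicate 4. Nog had a fold of 2.797, a log2 change of 1.37 (SE 0.23) and a limma adjusted p of 0.0777. Mstn, encoding myostatin, the main inhibitor of muscle growth, overlapped between weeks, at 42.01, 56.5, 35.5, 20.4 and 55.1 TPM at week 6 and 14.3, 48.6, 19.3, 48.3 and 15.9 TPM at week 4 (log2 change 0.61, SE 0.39, limma adjusted p = 0.225). Fst, encoding its antagonist follistatin, was low at 2.05, 2.09, 1.82, 1.91 and 1.79 TPM at week 6 and 0.736, 1.300, 1.08, 1.66 and 2.06 TPM at week 4 (log2 change 0.33, SE 0.14, limma adjusted p = 0.1004). In the list of myostatin, activin and BMP genes, 5 of 20 were called higher and 0 lower (1 and 0 rescaled), with a median of 0.33 (0.08 rescaled).

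Both genes named here for inhibitors of cap-dependent translation had higher means at week 6 and were not called. Eif4ebp1, which binds eIF4E when mTORC1 is inactive, had 824, 368, 247, 246 and 204 TPM at week 6, against 71.2, 235, 64.6, 177 and 63.8 TPM at week 4. Only week-4 replicate 2 overlapped, and week-6 replicate 1 was more than 2 times as high as the next library. Eif4ebp2, its relative, had 168, 97.7, 105, 97.6 and 115 TPM at week 6, against 62.4, 79.95, 59.2, 81.2 and 64.2 TPM at week 4, without overlap on either scale (log2 change 0.72, SE 0.16, limma adjusted p = 0.0777). The list of mTORC1 and its brakes had 7 of 16 genes called higher and 0 lower (2 and 0 rescaled), 4 without overlap (1 higher and 1 lower rescaled) and a median of 0.35 (0.08 rescaled). In the integrated stress response, which cells start when amino acids run short or proteins misfold, 5 of 15 genes were called higher and 0 lower (1 and 0 rescaled), 3 had groups without overlap (2 rescaled) and the median was 0.39 (0.14 rescaled). Asns, the asparagine synthetase that this response induces, had 3.04, 1.66, 2.99, 2.62 and 3.15 TPM at week 6, against 0.6901, 1.34, 0.988, 1.49 and 1.11 TPM at week 4. Cebpg, a C/EBP transcription factor of the same list, had 42.8, 31.96, 34.8, 27.2 and 25.9 TPM at week 6, against 18.5, 23.2, 20.5, 23.7 and 19.9 TPM at week 4. Both genes lacked overlap on either scale, and the Con libraries of Asns, at 0.586 to 1.07 TPM in both weeks, lay below all week-6 CAC libraries. Of 21 genes of amino acid transport and breakdown, 5 were called higher and 0 lower (2 and 0 rescaled), with a median of 0.32 (0.04 rescaled). Slc3a2, the heavy chain of several amino acid exchangers, averaged 39.6 ± 9.71 TPM at week 6 and 20.01 ± 7.59 TPM at week 4 (SD, n = 5 each), with week-4 replicate 2 at 29.8 TPM against a lowest week-6 value of 31.0 TPM.

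Transcripts of the ribosome formed a larger share at week 6. The 52 cytosolic ribosomal protein genes together made up 2.24 ± 0.417% of TPM at week 6 and 1.58 ± 0.305% at week 4 (SD, n = 5 each; two-sided exact permutation p = 0.0159, adjusted over 3 shares 0.0238). The share was 2.94, 2.05, 2.103, 2.28 and 1.84% in the week-6 libraries and 1.28, 2.01, 1.405, 1.78 and 1.401% in the week-4 libraries, so week-4 replicate 2 overlapped. Taken as a share of nuclear-encoded TPM the difference was 0.803 percentage points with an adjusted exact permutation p of 0.0635, and without week-4 replicate 1, 3 or 5 it was 0.0595 for the share of all TPM. In Con muscle the share was 1.24 ± 0.101% at week 6 and 1.22 ± 0.127% at week 4 (exact permutation p = 0.802). All 52 genes had a positive change, with 49 called higher and 0 lower (5 and 0 rescaled), 0 without overlap and a median of 0.52 (0.24 rescaled). These genes have many processed pseudogenes, so the division of reads among them is uncertain. Of 23 genes of MYC and ribosome biogenesis, 17 were called higher and 0 lower (3 and 0 rescaled), with 4 without overlap (0 rescaled) and a median of 0.42 (0.17 rescaled). Myc had 9.63, 8.98, 6.16, 8.696 and 4.79 TPM at week 6, against 1.15, 9.08, 1.97, 5.15 and 1.16 TPM at week 4, where replicate 2 and replicate 4 reached the week-6 range. Gnl3, the nucleolar GTPase nucleostemin, with week-6 replicate 1 the highest, averaged 45.8 ± 21.6 TPM at week 6 and 23.03 ± 7.01 TPM at week 4 (SD, n = 5 each).

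Lists of oxidative metabolism had negative medians at week 6 against week 4. Their rescaled medians were lower still, but rescaling also moved the median of all genes from 0.25 to 0.01. Of 13 mitochondrially encoded genes, 0 had a positive change, 2 were called lower as deposited and 2 rescaled, and 2 had groups without overlap (8 rescaled), with a median log2 change of -0.21 (-0.49 rescaled). mt-Co2, a core subunit of cytochrome c oxidase, had 42168, 48169.9, 52452, 51490.3 and 50434 TPM at week 6, against 65010.4, 53490.5, 61474, 53422 and 61147 TPM at week 4, and its neighbour mt-Co3 was likewise lower in all 5 week-6 libraries, at a mean of 50989.9 ± 4372 TPM, against 60146 ± 5179 TPM at week 4 (SD, n = 5 each). Among 55 nuclear genes of oxidative phosphorylation, 0 were called higher and 6 lower (0 and 28 rescaled), 1 lower gene had groups without overlap (16 rescaled), and the median was -0.14 (-0.42 rescaled). Cox7a1, the heart and muscle isoform of a cytochrome c oxidase subunit, had 393, 727, 761, 741 and 659 TPM at week 6, against 1109.6, 779, 1215, 806 and 1151 TPM at week 4. Week-6 replicate 1 was the lowest of the 10, and week-4 replicates 2 and 4 the lowest of their week. The log2 change was -0.64 (SE 0.20, limma adjusted p = 0.0777), against -0.23 in Con and -0.20 in NCAC muscle. Pyruvate oxidation and TCA cycle genes had 1 of 25 called higher and 5 lower (0 and 13 rescaled), with a median of -0.10 (-0.38 rescaled). Over the same weeks, as deposited, their median was -0.08 in Con and -0.20 in NCAC muscle. For the 55 nuclear genes of oxidative phosphorylation it was -0.08 in Con and -0.11 in NCAC muscle, and for mitochondrially encoded genes 0.01 and -0.02. The CAC step minus the Con step had medians of -0.04 for nuclear oxidative phosphorylation, -0.02 for pyruvate oxidation and TCA cycle and -0.22 for mitochondrially encoded genes. Against Con week 4, the nuclear oxidative phosphorylation median was -0.30 and -0.35 in CAC week-4 replicates 2 and 4. At week 6 it was -0.35 to -0.15. The regulators of mitochondrial biogenesis did not share this direction as deposited, with 5 of 16 called higher and 0 lower (0 and 1 rescaled) and a median of 0.26 (-0.01 rescaled). Ppargc1a, their main coactivator, averaged 16.9 ± 2.51 TPM at week 6 and 14.1 ± 2.75 TPM at week 4 (SD, n = 5 each; log2 change 0.25, SE 0.14, limma adjusted p = 0.167), and its sign turned on the rescaled values (-0.01).

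Fabp3, the cytosolic fatty acid carrier of oxidative fibres and heart, was lower in every week-6 library. CAC libraries held 394, 403, 420.4, 417 and 408 TPM at week 6, against 807, 610.2, 894, 552 and 811 TPM at week 4. The week-6 values lay close together while those of week 4 spread widely, with replicates 4 and 2 the lowest, and the groups did not overlap on either scale. The fold was 0.556 (log2 change -0.82, SE 0.13, limma adjusted p = 0.0777; -1.10 rescaled). Con muscle held 795, 1310.2, 1367, 1317 and 1084 TPM at week 6 and 616, 1386, 1321, 1937 and 863 TPM at week 4. The log2 change of Fabp3 was 0.02 in Con and -0.43 in NCAC muscle. Mb, encoding the oxygen store myoglobin, had 1734, 3388, 4249, 3507 and 3976 TPM at week 6, against 7903, 6007, 9255, 3425 and 6217 TPM at week 4, where replicate 4 alone fell in the week-6 range. Its log2 change was -0.95 in CAC, -0.29 in Con and -0.50 in NCAC muscle. Slc25a20, which carries acylcarnitines into mitochondria, had 46.6, 44.04, 43.5, 46.5 and 46.3 TPM at week 6, against 51.7, 50.5, 59.8, 48.7 and 53.6 TPM at week 4. Of 27 genes of fatty acid uptake and oxidation, 2 were called higher and 5 lower (0 and 11 rescaled), 2 lower genes lacked overlap (5 rescaled), and the median was -0.09 (-0.37 rescaled). As deposited, the median of this list was 0.01 in Con and -0.26 in NCAC muscle. Pdk4, the kinase that blocks pyruvate oxidation in fasting, overlapped widely between the weeks, at 1357, 941, 123, 743 and 608 TPM at week 6 and 438, 1424, 404, 1328 and 338 TPM at week 4 (log2 change -0.13, SE 0.63, limma adjusted p = 0.874, and 0.59 without week-4 replicates 2 and 4). Glycolysis and glycogen genes had 7 of 26 called higher and 0 lower (1 and 0 rescaled), with a median of 0.06 (-0.22 rescaled). Gapdh, often used as a constant gene, averaged 3336 ± 158 TPM at week 6 and 2801 ± 164 TPM at week 4 (SD, n = 5 each), and its change of 0.25 turned to -0.03 on the rescaled values. Gpi1, the enzyme after hexokinase, had 747, 363, 285, 378 and 324 TPM at week 6, against 219.9, 272, 210.1, 256 and 214 TPM at week 4.

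**Figure D4:**
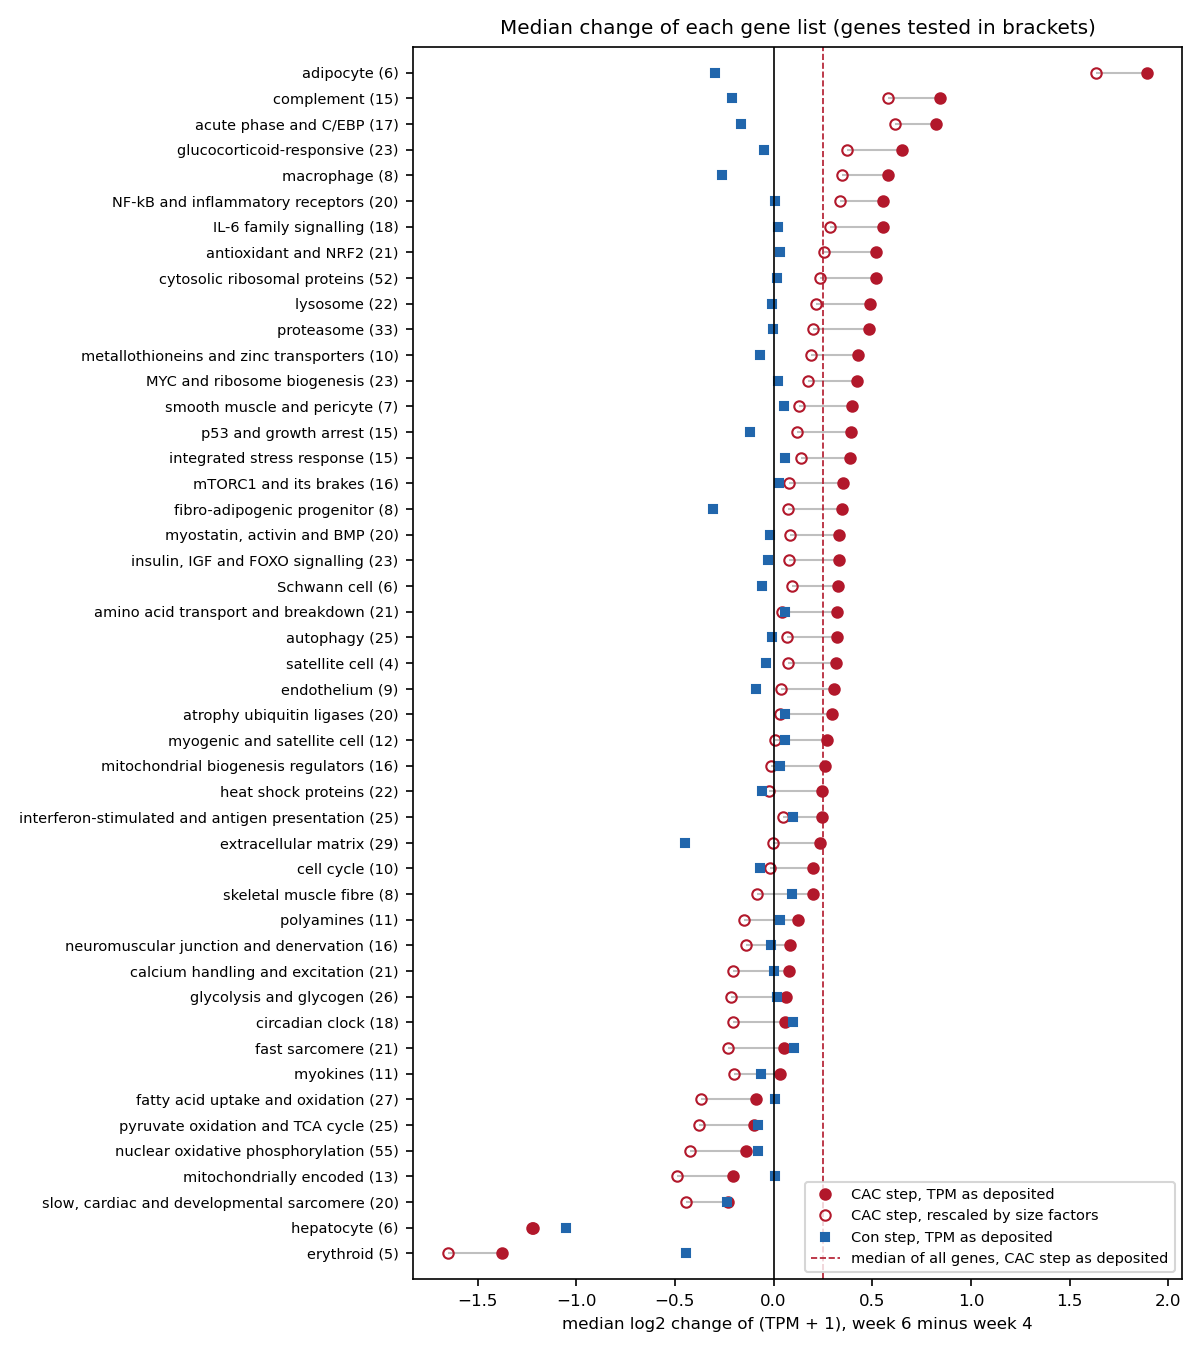
Median log2 change of TPM + 1, week 6 minus week 4, for each gene list with at least 3 tested genes (number in brackets), in CAC muscle as deposited (filled circles) and rescaled (open circles) and in Con muscle as deposited (squares). The dashed line is the median of all genes in CAC muscle, 0.25. The adipocyte list, the complement list and the list of acute phase and C/EBP genes lay farthest to the right, at 1.89, 0.84 and 0.83. The mitochondrially encoded list lay at -0.21, or -0.49 rescaled.

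No change of contractile genes as a group was detected. Their summed share was 12.4 ± 1.88% of TPM at week 6 and 12.9 ± 1.34% at week 4 (SD, n = 5 each; two-sided exact permutation p = 0.659). Taken as a share of nuclear-encoded TPM the difference was -3.02 percentage points, with an adjusted exact permutation p of 0.103. The fast sarcomere list had 2 of 21 genes called higher and 2 lower (0 and 2 rescaled) with a median of 0.05 (-0.23 rescaled), and the slow, cardiac and developmental list had 0 of 20 called higher and 2 lower (0 and 2 rescaled) with a median of -0.23 (-0.44 rescaled). Myh4, the myosin heavy chain of the fastest fibres (type 2B), had 16333, 13987, 9362, 11914 and 14316 TPM at week 6, against 6034, 8616, 5887, 11908 and 7593 TPM at week 4. Week-4 replicate 4, the highest of its week, was the only one in the week-6 range (log2 change 0.74, SE 0.20, limma adjusted p = 0.0777). Myh2, the heavy chain of oxidative fast fibres (type 2A), had 141, 262, 179, 269 and 271 TPM at week 6, against 558, 1145, 1437, 185 and 331 TPM at week 4 (log2 change -1.37, SE 0.49, limma adjusted p = 0.0812). In Con muscle Myh2 had 192, 333, 403, 668 and 436 TPM at week 6 and 563, 1288, 635, 1779 and 442 TPM at week 4 (log2 change -1.12, limma adjusted p = 1.000). Myh2 was called lower in CAC muscle by the fit of all 62 libraries. Mybph, a myosin-binding protein that increases in denervated and growing fibres of rodents, had 2.46, 7.56, 21.1, 4.49 and 5.94 TPM at week 6, against 7.04, 102, 48.3, 66.2 and 47.3 TPM at week 4, where replicate 1 lay in the week-6 range. Actc1, the cardiac and developmental actin, had 10.3, 6.67, 16.8, 11.7 and 8.04 TPM at week 6 and 40.2, 5.25, 43.6, 55.4 and 67.2 TPM at week 4, and replicate 2 was the lowest of all. Atp2a1, the calcium pump of fast fibres, had 24232, 20939, 15701, 16484 and 18802 TPM at week 6, against 12059, 14199, 12104, 15478 and 13004 TPM at week 4, without overlap as deposited.

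The remaining muscle programmes had medians near or below that of all genes. Calcium handling and excitation genes had 3 of 21 called higher and 0 lower, with a median of 0.08 (-0.21 rescaled). In the list of the neuromuscular junction and denervation the counts were 2 higher and 0 lower of 16 (0 and 2 rescaled), with a median of 0.08 (-0.14 rescaled). For myogenic and satellite cell genes they were 4 and 0 of 12 (0 and 1 rescaled), with a median of 0.27 (0.01 rescaled). Nos1, the neuronal nitric oxide synthase that muscle fibres anchor at the membrane, had 74.7, 43.8, 57.1, 50.9 and 38.5 TPM at week 6, against 25.1, 26.4, 27.6, 16.9 and 32.3 TPM at week 4. The weeks did not overlap, week-4 replicate 4 was the lowest of all, and Con muscle overlapped with both weeks, at 35.98, 31.4, 30.1, 42.1 and 31.1 TPM at week 6 and 37.6, 37.1, 26.5, 29.6 and 26.7 TPM at week 4. Circadian clock genes, which depend on the hour of dissection, had 4 of 18 called higher and 1 lower (0 and 1 rescaled) with a median of 0.06 (-0.21 rescaled), and their output gene Dbp had 12.7, 27.3, 4.16, 54.04 and 45.3 TPM at week 6 and 72.9, 22.9, 81.3, 27.02 and 108 TPM at week 4. The sources used here do not give the hour, and its part in these results was not tested. Myokines had 0 of 11 called either way (0 and 1 rescaled) with a median of 0.03 (-0.20 rescaled), and polyamine genes 2 and 0 of 11 (0 and 1 rescaled) with a median of 0.12 (-0.15 rescaled). Cell cycle genes had 1 and 0 of 10 (0 and 0 rescaled), with a median of 0.20 (-0.02 rescaled). Heat shock genes had 3 of 22 called higher and 1 lower (0 and 1 rescaled), with a median of 0.25 (-0.02 rescaled), and Cryab, a small heat shock protein of muscle, had 185, 1040.3, 985, 626 and 622 TPM at week 6, against 1025, 3575, 1211, 2257 and 559 TPM at week 4. Its highest values were those of week-4 replicates 2 and 4, and the weeks overlapped.

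Antioxidant genes stood above the median. Of 21 genes of antioxidant defence and NRF2, 11 were called higher and 1 lower (2 and 3 rescaled), 2 had groups without overlap on either scale and the median was 0.52 (0.25 rescaled). Gpx3, the secreted glutathione peroxidase, had 894, 502, 457, 381 and 508 TPM at week 6, against 119, 279, 99.9, 257 and 127 TPM at week 4. The lowest week-6 library was above the highest week-4 library, replicate 2, and Con libraries held 135, 97.6, 59.1, 104 and 133 TPM at week 6 and 104, 77.2, 68.7, 53.9 and 95.3 TPM at week 4. The log2 change was 1.70 (SE 0.31, limma adjusted p = 0.0777; 1.41 rescaled). G6pdx, the first enzyme of the pentose phosphate pathway, which supplies NADPH, had 3.82, 2.75, 3.76, 4.17 and 3.42 TPM at week 6, against 1.35, 2.46, 1.96, 2.38 and 2.06 TPM at week 4. Hmox1, the haem-degrading enzyme that NRF2 induces, was high in 1 mouse, with 60.1, 6.54, 8.002, 5.02 and 5.68 TPM at week 6 and 3.45, 4.29, 3.603, 5.196 and 4.45 TPM at week 4.

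Further genes had no overlap on either scale, and of those named here Hes1 was in a list above, that of myogenic and satellite cell genes. Apod, a secreted lipocalin, had 202, 163, 184, 180.2 and 166 TPM at week 6, against 27.5, 116, 44.8, 88.9 and 58.4 TPM at week 4 and at most 27.1 TPM in any Con library of either week. The week-6 values lay close together, while those of week 4 differed more than 4 times, with replicate 2 the highest. Entpd1, the ectonucleotidase CD39, had 17.4, 16.99, 23.9, 22.01 and 16.6 TPM at week 6, against 7.54, 12.9, 7.95, 10.4 and 9.71 TPM at week 4. Tmem176a, a membrane protein of immune cells, had 18.9, 13.5, 15.3, 19.3 and 11.7 TPM at week 6, against 5.14, 9.81, 7.16, 7.996 and 6.88 TPM at week 4. Lower genes of this kind were Dupd1, a dual-specificity phosphatase of muscle, with 3.51, 10.2, 11.7, 10.01 and 14.97 TPM at week 6 and 23.1, 15.8, 21.5, 30.6 and 33.3 TPM at week 4, and Itgb6, an integrin chain, with 0.658, 1.81, 3.09, 3.05 and 2.72 TPM at week 6 and 5.96, 4.403, 4.41, 4.83 and 6.55 TPM at week 4. Aimp2, a scaffold of the aminoacyl-tRNA synthetase complex, averaged 74.6 ± 15.1 TPM at week 6 and 113 ± 14.6 TPM at week 4 (SD, n = 5 each), and Hes1, a transcriptional repressor downstream of Notch, 7.62 ± 1.01 TPM at week 6 and 12.3 ± 2.56 TPM at week 4. The log2 changes of these 4 lower genes ran from -1.29 for Dupd1 to -0.61 for Hes1, each with a limma adjusted p of 0.0777.

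Markers of other cell types also differed between the weeks. Of 7 adipocyte markers, 6 were tested, 5 were called higher and 0 lower (4 and 0 rescaled), and the median log2 change was 1.89 (1.64 rescaled), against -0.30 in Con muscle. Adipoq, encoding adiponectin, had 12.2, 9.19, 9.79, 41.9 and 24.4 TPM at week 6, against 0.8503, 1.15, 3.48, 6.24 and 13.05 TPM at week 4, and Cfd, encoding adipsin, 130.4, 70.3, 102, 394 and 278 TPM, against 15.04, 12.5, 27.7, 59.5 and 112 TPM at week 4. Week-6 replicates 4 and 5 were the highest for both genes, and week-4 replicate 5 overlapped with week 6. Cidec, a coat protein of fat droplets, had 11.05, 6.81, 7.66, 30.99 and 23.1 TPM at week 6, against 1.401, 0.884, 2.37, 5.82 and 5.18 TPM at week 4, without overlap, and Retn, encoding resistin, averaged 9.63 ± 6.08 TPM at week 6 and 2.11 ± 2.07 TPM at week 4 (SD, n = 5 each). The summed adipocyte list was 396 to 866 TPM at week 6 and 155 to 526 TPM at week 4, and whether fat cells within or around the muscle were sampled with it was not tested. With the replicate number as a block, Cidec, Retn, Cfd and Rasd2 were the 4 genes called, all higher, although the numbers did not pair the mice.

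Erythroid markers were lower at week 6. Hbb-bs, an adult beta globin, had 301, 289.7, 332, 241 and 297 TPM at week 6, against 1261, 596, 1013, 503 and 703 TPM at week 4. The week-6 values lay close together, and every week-4 library was above them. The log2 change was -1.40 (SE 0.22, limma adjusted p = 0.0777). Con muscle was at 217, 149, 263, 482 and 509 TPM at week 6 and 242, 308, 636, 474 and 434 TPM at week 4, so of these 4 groups CAC at week 4 had the highest mean. Hba-a1 averaged 319 ± 30.5 TPM at week 6 and 776 ± 276 TPM at week 4 (SD, n = 5 each), and Hbb-bt 42.1 ± 16.2 TPM at week 6 and 109.5 ± 37.6 TPM at week 4. Globin genes have near-identical copies, so the level of each is uncertain. Alas2, the haem synthesis enzyme of red cell precursors, had 3.65, 2.78, 2.37, 2.64 and 3.32 TPM at week 6 and 11.2, 5.82, 6.65, 3.37 and 6.53 TPM at week 4. Of 5 tested erythroid genes, 0 were called higher and 1 lower (0 and 0 rescaled), 3 lower genes lacked overlap, and the median log2 change was -1.37, against -0.44 in Con muscle. How much blood remained in each muscle was not tested.

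Connective tissue and the other cell type lists had smaller median changes within CAC muscle than the adipocyte and erythroid lists. Fibro-adipogenic progenitor markers had 4 of 8 called higher and 0 lower (0 and 0 rescaled), with a median of 0.35 (0.07 rescaled), and extracellular matrix genes 5 of 29 called higher and 0 lower (0 and 0 rescaled), with a median of 0.23 (-0.0049 rescaled). Dcn, the proteoglycan decorin, averaged 315 ± 41.1 TPM at week 6 and 200.5 ± 63.7 TPM at week 4 (SD, n = 5 each), where replicate 1, at 106 TPM, lay below all Con libraries of both weeks. In Con muscle the matrix and fibro-adipogenic lists ran the other way over the same weeks, with medians of -0.45 and -0.31. Their medians for the CAC step minus the Con step were 0.76 and 0.78. Satellite cell markers had a median of 0.32 (0.07 rescaled, 0 of 4 called), and Schwann cell markers 0.33 (0.09 rescaled, 0 of 6 called). Smooth muscle and pericyte markers had a median of 0.40 (0.13 rescaled), with 2 of 7 called higher (0 rescaled). Neutrophil markers had 2 of 8 tested and 0 called, with sums of 6.52 to 33.1 TPM at week 6 and 1.88 to 18.99 TPM at week 4. B and plasma cell markers had 2 of 8 tested and 0 called. Of 7 T cell markers none passed the filter, and their summed level was at most 0.329 TPM at week 6 and 0.460 TPM at week 4. Melanocyte markers, which melanoma cells can carry, had 2 of 7 tested, Mitf and Sox10, which other cells of muscle and nerve express too. In the fit of all 62 libraries 1 was called higher (0 rescaled), Mitf had weeks without overlap, and the list summed to 7.26 to 9.85 TPM at week 6 and 5.59 to 6.63 TPM at week 4. Keratinocyte markers, a sign of skin, summed to at most 2.19 TPM at week 6 and 2.26 TPM at week 4.

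No change was detected over the same step in Con muscle. No gene was called between Con at week 6 and Con at week 4 (smallest limma adjusted p 0.634), 61 genes were higher (0.549%) and 399 lower (3.59%) at an unadjusted p under 0.05, and the fit of all 62 libraries also called 0. Groups did not overlap in 6 genes that were higher (0.0540%) and 87 that were lower (0.783%), and the median change was -0.02. In NCAC muscle 0 genes were called by either fit (83 higher, 0.747%, and 259 lower, 2.33%, at an unadjusted p under 0.05, limma), with 12 genes without overlap that were higher (0.108%) and 85 lower (0.765%).

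Whether the CAC step differed from the Con step was tested as an interaction in limma on the 20 libraries. It called 0 genes, with 3146 higher (28.3%) and 46 lower (0.414%) at an unadjusted p under 0.05 and a smallest adjusted p of 0.0693, which Lbp, C4b, Il1r1, Asns, Tmem176a and Entpd1 were among the genes to share. The fit of all 62 libraries called 98 genes (0.882%), all with the larger step in CAC muscle, and 0 after rescaling. Without week-4 replicate 2 of CAC the 20-library fit called 511 genes, and without replicates 2 and 4 it called 2056. The interaction was 1.51 (log2) for Rasd2 (limma adjusted p = 0.109) and 1.04 for Plvap (limma adjusted p = 0.0908). In the fit of all 62 libraries the limma adjusted p was 0.0477 for Rasd2 (0.293 rescaled), one of the 98 genes called, and 0.0794 for Plvap (0.397 rescaled). Against NCAC the interaction called 0 genes (2176 higher, 19.6%, and 74 lower, 0.666%, at an unadjusted p under 0.05, limma). There the fit of all 62 libraries called 75 higher (0.675%), and after rescaling 1 lower (0.00900%), Gm26881.

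The levels before and after this step are given for 6 genes. Rasd2 averaged 4.53 ± 1.44, 4.39 ± 1.54, 20.9 ± 5.98 and 18.9 ± 3.87 TPM in CAC muscle at weeks 2, 4, 6 and 8 (SD, n = 5 at each week and 7 at week 8), so week 8 stayed near week 6. Plvap averaged 19.2 ± 5.57, 25.2 ± 6.99, 62.2 ± 4.61 and 69.8 ± 18.6 TPM, Nog 3.78 ± 0.805, 6.52 ± 2.51, 18.2 ± 5.08 and 18.5 ± 7.46 TPM, and Gpx3 104 ± 22.3, 177 ± 84.6, 548 ± 199 and 499 ± 211 TPM over the same weeks. Apod averaged 34.3 ± 9.49, 67.1 ± 35.3, 179 ± 15.6 and 162 ± 59.9 TPM. Fabp3 averaged 769 ± 279, 735 ± 146, 409 ± 10.6 and 427 ± 107 TPM. The week-8 means of all 6 genes lay within 1 SD of week 8 from the week-6 mean. Steps other than week 6 against week 4 were not tested here.

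**Figure D5:**
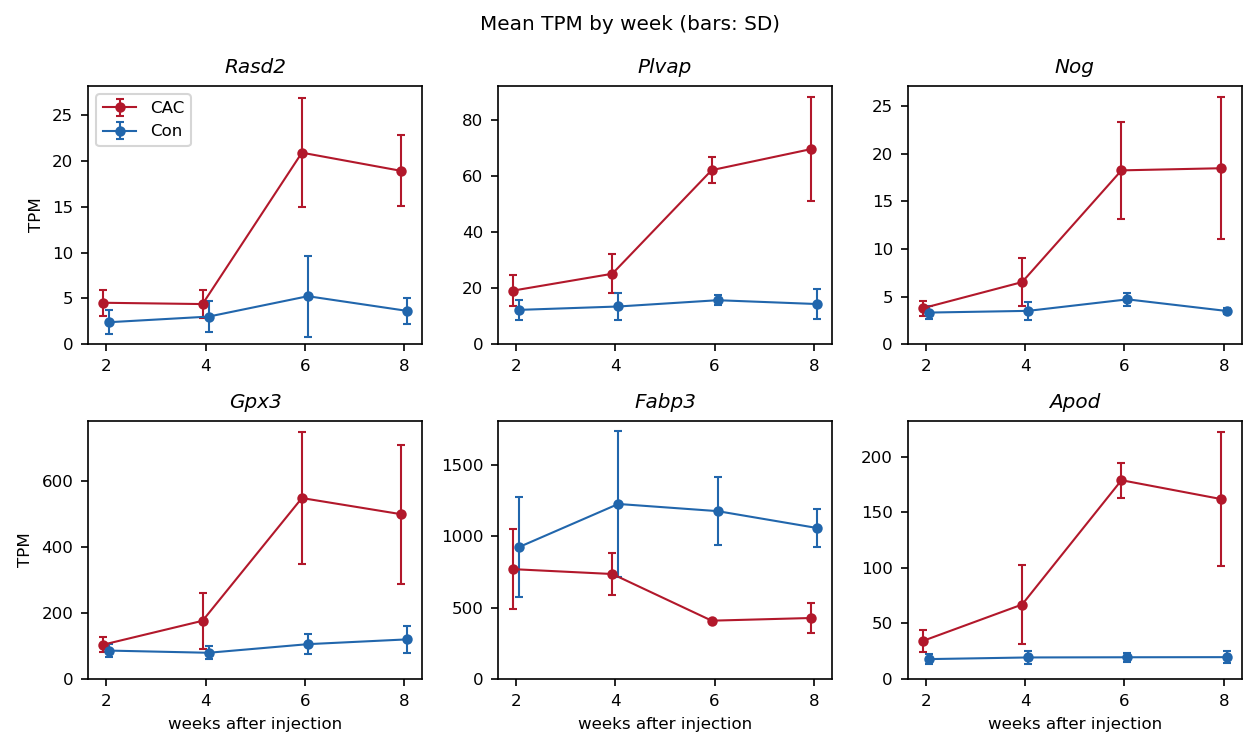
Mean TPM of 6 genes at weeks 2, 4, 6 and 8 after injection in CAC muscle (red) and Con muscle (blue), with SD as bars, for 5 libraries per group and 7 in CAC at week 8. In CAC muscle the means of Rasd2, Plvap, Nog, Gpx3 and Apod were above those of Con muscle at week 4 and farther above them at weeks 6 and 8, and the mean of Fabp3 was lower at weeks 6 and 8 than at week 4.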

How the data were processed

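The mRNA of mouse tibialis anterior muscle was sequenced on the Illumina NovaSeq platform from stranded TruSeq libraries, per the labels' protocols. The deposited table holds TPM for 47643 genes in 62 libraries (build mm10, per the submitters' processing notes), which the authors computed from their reads. The sources used here name no aligner, quantifier or annotation. TPM keep no read depth, so no counting interval is given and no count model was used. All columns were matched to samples by their titles, and 0 were left over.

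From these values, log2(TPM + 1) was computed for the 11107 genes that averaged 1 TPM or more across libraries, of 23019 above 0 anywhere. Contrasts were fitted with limma 3.58.1 in R 4.3.3 (lmFit, eBayes with trend, two-sided) on the libraries of each contrast, with Benjamini-Hochberg adjustment over all genes kept. The pipeline was tested on simulated data. Summed shares were compared by two-sided exact permutation tests, for which 5 against 5 libraries allow a smallest p of 0.00794. Alternatives were a pseudocount of 0.1, no filter, median-of-ratios rescaling, leaving out mitochondrially encoded genes, a fit of all 62 libraries, a replicate block, leaving out each library in turn, and leaving out week-4 replicates 2 and 4 of CAC together. Added after seeing the data were rescaling joined with the fit of all 62 libraries, the count at an adjusted p under 0.1 and the counts of genes without overlap. Genes to name were the 12 largest called changes in each direction, up to 4 called members of each list and a panel of 12 genes. The contrast, the 37 pathway lists, the 15 cell type lists and the panel were chosen with earlier results of these data known. Gene coordinates came from GENCODE M21 (GRCm38), and promoters from RefSeq (GRCm38.p6). Libraries of the same group had Spearman correlations of 0.886 to 0.987 over 131 pairs, and 0 pairs were identical. One result is not reported here.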

Additional observations from a re-analysis of the deposited data

Results flagged for a closer look

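Single libraries stood apart from the other 4 of their group in 40 of the 344 sets of 5 libraries tested (83 genes and 3 shares of TPM in 4 groups), where the gap to the nearest library was more than 0.71 of the group's range (Dixon's 95% value for 5 samples). For independent, normally distributed values, chance gives such a gap in about 1 in 20 groups. These were untransformed TPM of genes mostly chosen after seeing the data, so the 40 cannot be set against that rate. In CAC at week 6, replicate 1 was the high value for 15 genes and the low value for 2. It was high for Serpina3n (377 TPM, nearest library 93.8 TPM), Lcn2 (188 TPM, nearest library 35.4 TPM), Slc39a14 (65.1 TPM, nearest library 8.36 TPM), Fkbp5 (185 TPM, nearest library 78.9 TPM), Cdkn1a (145 TPM, nearest library 54.8 TPM), Fbxo31 (382 TPM, nearest library 147 TPM), Psmd2 (373 TPM, nearest library 225 TPM) and Lamp1 (761 TPM, nearest library 528 TPM). It was also high for Akt1 (145 TPM, nearest library 58.9 TPM), Eif4ebp1 (824 TPM, nearest library 368 TPM), Eif4ebp2 (168 TPM, nearest library 115 TPM), Gnl3 (83.6 TPM, nearest library 42.3 TPM), Gpx3 (894 TPM, nearest library 508 TPM), Hmox1 (60.1 TPM, nearest library 8.002 TPM) and Gpi1 (747 TPM, nearest library 378 TPM). It was low for Cox7a1 (393 TPM, nearest library 659 TPM) and Aimp2 (48.3 TPM, nearest library 77.5 TPM). Replicate 3 of CAC at week 6 was high for Mybph (21.1 TPM, nearest library 7.56 TPM). Replicate 4 of CAC at week 6 was high for Hp (261 TPM, nearest library 85.3 TPM). Replicate 5 of CAC at week 6 was high for Alb (1.16 TPM, nearest library 0 TPM). Replicate 2 of CAC at week 4 was high for Lcn2 (38.2 TPM, nearest library 2.85 TPM), Slc39a14 (13.3 TPM, nearest library 5.05 TPM), Cdkn1a (80.9 TPM, nearest library 26.2 TPM) and Ppargc1a (18.95 TPM, nearest library 13.6 TPM). Replicate 1 of Con at week 6 was high for Rasd2 (13.1 TPM, nearest library 4.32 TPM), Cdkn1a (30.5 TPM, nearest library 9.46 TPM), Fst (2.41 TPM, nearest library 1.34 TPM) and Apod (27.1 TPM, nearest library 18.5 TPM). Replicate 4 of Con at week 6 was high for Mt1 (59.5 TPM, nearest library 33.3 TPM) and Hes1 (27.8 TPM, nearest library 9.26 TPM) and low for Adipoq (1.01 TPM, nearest library 3.42 TPM). Replicate 5 of Con at week 6 was high for Hp (6.499 TPM, nearest library 1.13 TPM). Replicate 1 of Con at week 4 was high for Il6st (37.4 TPM, nearest library 27.9 TPM) and Nog (5.13 TPM, nearest library 3.49 TPM). Replicate 3 of Con at week 4 was high for Hp (20.9 TPM, nearest library 5.198 TPM), Serpina3n (5.55 TPM, nearest library 2.15 TPM), C3 (24.02 TPM, nearest library 8.81 TPM) and Alb (142 TPM, nearest library 1.42 TPM). Replicate 5 of Con at week 4 was high for Cebpd (28.1 TPM, nearest library 6.07 TPM) and Cdkn1a (27.1 TPM, nearest library 14.1 TPM). Replicate 1 of CAC at week 6 was also farthest out on the first principal component, at 76.0, and had the lowest mitochondrial share of TPM, 33.5%. Without it 0 genes were called between the weeks, and what set this mouse apart was not tested. Con at week 4 replicate 3 carried Alb together with Hp, C3 and Serpina3n.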

How the results depend on the processing

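The number of genes called between weeks 6 and 4 of CAC was 2, and 2 with a pseudocount of 0.1 or without mitochondrially encoded genes. It was 1 with no filter (20589 genes tested, Gm10406, lower), 0 with rescaling, 3762 in the fit of all 62 libraries, 688 with both, 4 with a replicate block, 3279 without week-4 replicates 2 and 4 (3026 higher, 253 lower) and 0 to 2066 leaving out 1 library at a time (2066 without week-4 replicate 2, of which 1993 higher and 73 lower). The replicate numbers did not pair the mice: same-numbered CAC libraries of the 2 weeks had correlations of -0.33 to 0.22, and 2 of 5 correlated best with their own number. The CAC step minus the Con step called 0 genes, 98 in the fit of all 62 libraries, 2056 without week-4 replicates 2 and 4, and 0 to 511 leaving out 1 library. Minus the NCAC step it called 0, 75, 577 and 0 to 12 in the same settings, and 1 with rescaling and all 62 libraries together (Gm26881, lower). The NCAC step called 0 to 1 (Ldhb without NCAC week-6 replicate 5), and the Con step 0 in every setting run. Genes without overlap numbered 1320, 361 rescaled, 5081 without week-4 replicates 2 and 4, 3010 without week-4 replicate 2 and 1395 without week-6 replicate 1, with no other single library left out for this count. Leaving out 1 library, the mitochondrial share differed by -7.09 to -4.83 percentage points, the ribosomal protein share by 0.494 to 0.775 (0.803 of nuclear-encoded TPM, not called), both losing their calls without week-4 replicate 1, 3 or 5, and the sarcomere share by -1.10 to 0.081, turning sign without week-4 replicate 4 (0.049) or week-6 replicate 1 (0.081). As a share of nuclear-encoded TPM, with all 10 libraries, the sarcomere genes differed by -3.02 percentage points, not called. Log2 changes turned sign for Ppargc1a (-0.0149) and Gapdh (-0.0312) with rescaling, alone or with all 62 libraries, and for Pdk4 without week-4 replicates 2 and 4 (0.59) and in 3 of the 10 fits without 1 library (range -0.43 to 0.43). Rasd2 was called in 12 and Plvap in 8 of 18 alternatives. The cause of these differences was not tested, other than the fewer samples entering some fits. The number of mice limits the precision, and depth is unknown.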
